A study of Mus musculus with 17 samples.

Results

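Secreted BMP antagonists are extracellular proteins that bind bone morphogenetic proteins (BMPs) and limit or shape the signal that reaches their receptors. The genes described are 10 of the 49671 genes in the count tables, chosen by name: Nog, Chrd, Fst, Fstl1, Grem1, Cer1, Twsg1, Tsku, Nbl1 and Bmper. All 10 were found by symbol, and 9 of them had enough counts to be tested, since Cer1 had no count in any library. The cells were R1 mouse embryonic stem cells that carry FOXA2-Venus, a fluorescent reporter of the floor plate and endoderm transcription factor FOXA2, and all 6 groups share that line. Each group was sorted into FOXA2-positive or FOXA2-negative cells and sequenced with SMART-Seq v2, a full-length cDNA method. BMP4 groups had 18 hours of retinoic acid (RA), 6 hours without treatment and 8 hours of BMP4, the LDN groups had the same schedule with LDN in place of BMP4, and the RA groups had 18 hours of RA, per the labels. There were 3 libraries in each group, except 2 in LDN FOXA2-positive cells (numbered 2 and 3). The labels do not spell LDN out, and in comparisons with RA the treatment and the schedule cannot be told apart.

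In the neural tube, BMP signals come from the dorsal side, opposite the floor plate, and antagonists from the node and notochord are known to keep early midline and neural tissue free of them. Noggin (Nog) and chordin (Chrd) bind BMPs and block receptor binding. Follistatin (Fst) binds activins and some BMPs, and follistatin-like 1 (Fstl1) is a secreted glycoprotein of the same family. Gremlin 1 (Grem1), cerberus (Cer1) and Nbl1, also called DAN, form the DAN family. Twisted gastrulation (Twsg1) and Bmper, the vertebrate crossveinless-2, act with chordin and can either dampen or help BMP signalling, and tsukushi (Tsku) is a small leucine-rich proteoglycan that binds BMPs and chordin. Several antagonist genes are themselves known to be induced by BMP signalling, as negative feedback.

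Start-site sequences of 8 of the 10 genes were in the RefSeq tables for GRCm38.p6 (mm10), and Nog and Fst had none. The letters GGCGCC, a GC-rich SMAD element, GTCTAGAC, the palindromic SMAD box, TGTTTAC, a forkhead core, and AGGTCA, a retinoid receptor half-site, were searched on both strands of 300-base windows, 250 bases of which lie before the start. GGCGCC occurred once each in Chrd, Grem1 and Nbl1, against 11.9% of all 32851 windows. The windows of these genes are rich in G and C (78.3%, 70.7% and 78.3%), against 51.7% (Cer1) to 72.7% (Bmper) in the other members. The share over all windows was not matched for this content. AGGTCA occurred once, in Grem1, against 16.3% of windows, while GTCTAGAC (0.213% of windows) and TGTTTAC (3.65%) occurred in none of these 8 genes. The first 3 stretches below are those around GGCGCC, shown in capitals because that element is the one most members share, with 20 bases on each side. Its first base lay 203 bases before the start in Chrd, 78 in Grem1 and 179 in Nbl1. The other stretches are from Bmper and Fstl1. That of Bmper holds the bases before its start. Bmper counts separated BMP4 from LDN in FOXA2-negative cells without a call, as did those of Nog, Twsg1 and Tsku. The share of all tested genes that separate in this way was not counted, so this says nothing about the members as a group. For Fstl1, the member called between the sorted fractions, it is the part of its window that precedes the GENCODE gene start. That gene start lies upstream of the RefSeq start the window was cut around. Neither stretch holds any of the 4 motifs. A match describes letters only.
Chrd, chr16:20732904-20732949, plus strand: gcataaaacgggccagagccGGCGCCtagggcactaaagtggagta
Grem1, chr2:113758701-113758746, minus strand: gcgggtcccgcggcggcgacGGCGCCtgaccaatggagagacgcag
Nbl1, chr4:139093124-139093169, minus strand: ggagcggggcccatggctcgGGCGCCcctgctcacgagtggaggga
Bmper, chr9:23222826-23223075, plus strand: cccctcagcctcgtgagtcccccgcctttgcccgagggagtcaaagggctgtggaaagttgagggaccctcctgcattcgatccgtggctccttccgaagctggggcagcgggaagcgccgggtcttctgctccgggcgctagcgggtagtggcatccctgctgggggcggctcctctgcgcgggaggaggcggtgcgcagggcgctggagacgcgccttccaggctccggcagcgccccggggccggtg
Fstl1, chr16:37776805-37776872, plus strand: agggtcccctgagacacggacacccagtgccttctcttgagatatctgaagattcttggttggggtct

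Levels are CPM, a gene's share of the counts of its library, scaled by TMM, edgeR's trimmed mean normalisation. Total gene counts ran from 8435845 to 10796136 a library, so that 1 count was worth 0.0938 to 0.12 CPM. Foxa2 lay between 18.4 and 44.2 CPM in the FOXA2-positive libraries and between 0 and 2.93 CPM in the FOXA2-negative ones, so the sort labels and the RNA went together. Of the other floor plate markers, Foxa1 ranged over 3.88 to 13 CPM in FOXA2-positive against 0.377 to 3.61 CPM in FOXA2-negative cells with BMP4, 14.7 to 20.6 against 0.21 to 5.1 CPM with LDN and 2.76 to 18.4 against 0 to 4.6 CPM with RA. Ntn1 was detected in all libraries (2.37 to 15.4 CPM), and Shh was at 0 in every group except LDN FOXA2-positive cells. The RA libraries numbered 1 stood apart, with 7.43% (FOXA2-positive) and 6.94% (FOXA2-negative) of counts from mitochondrial genes, against at most 4.81% elsewhere. No label ties the libraries to separate cultures, and the p-values therefore describe the spread between these libraries, which may be technical. In these bulk samples fewer cells of a type and less RNA per cell cannot be told apart.

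The 10 genes spanned a wide range of levels. Per kilobase of exon, Tsku had a mean of 76.6 CPM over the 17 libraries, Fstl1 13.7, Twsg1 4.75, Nog 3.41 and Nbl1 1.44 CPM. Bmper (0.294), Chrd (0.255), Grem1 (0.2) and Fst (0.185 CPM per kilobase) were near the detection limit, and Cer1 had 0 counts in all 17 libraries. Summed over the members, libraries held 180 to 499 CPM, of which Tsku made up 51.5% to 80.4%. Spread followed level: the biological coefficient of variation was 0.177 for Fstl1, 0.202 for Tsku, 0.258 for Twsg1 and 0.728 for Nog, and between 1.04 and 1.86 for Nbl1, Bmper, Fst, Chrd and Grem1, against a median of 0.455 over all tested genes.

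Nog (ENSMUSG00000048616, chr11:89300638-89302332, minus strand, mm10) was highest in the cells given BMP4. In BMP4 FOXA2-positive cells its level was 22.7, 17.8 and 16.0 CPM (libraries 1, 2 and 3), in BMP4 FOXA2-negative cells 6.4, 6.99 and 11.2 CPM. No Nog read was counted in either LDN FOXA2-positive library, and LDN FOXA2-negative libraries had 1.57, 0 and 1.86 CPM. RA FOXA2-positive cells had 0.111, 1.88 and 2.35 CPM, and RA FOXA2-negative cells 0.523, 3.04 and 5.93 CPM. The BMP4 FOXA2-positive libraries lay above all others, and the BMP4 FOXA2-negative libraries came next, clear of every LDN and RA library. Group means were in the order 18.8 ± 3.45 (BMP4 FOXA2-positive), 8.2 ± 2.63 (BMP4 FOXA2-negative), 3.16 ± 2.71 (RA FOXA2-negative), 1.45 ± 1.18 (RA FOXA2-positive), 1.15 ± 1.00 (LDN FOXA2-negative) and 0 CPM (LDN FOXA2-positive; SD, n = 3, or 2 for the last), and neighbours from the third place on overlapped.

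**Figure D1:**
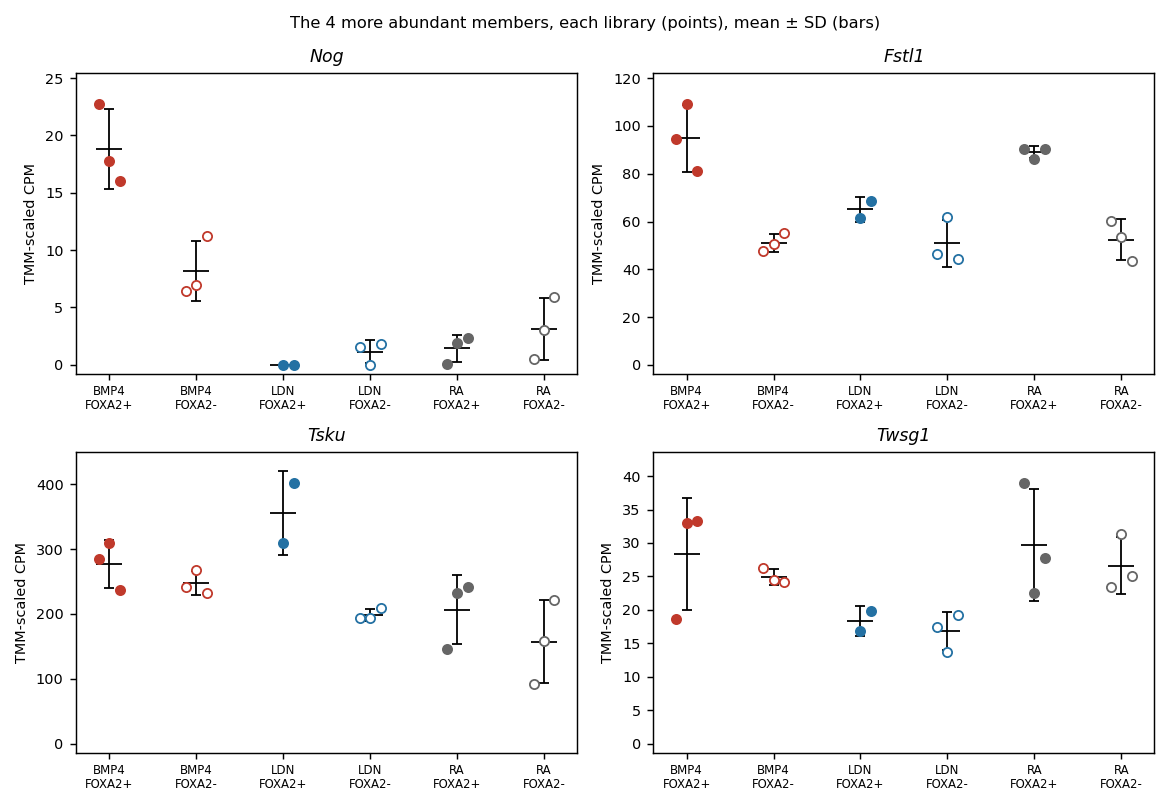
TMM-scaled CPM of Nog, Fstl1, Tsku and Twsg1 in each library, by treatment and sorted fraction; filled points are FOXA2-positive, open points FOXA2-negative, bars the mean and SD (n = 3, or 2 for LDN FOXA2-positive). Nog is highest in the BMP4 FOXA2-positive libraries (16.0 to 22.7 CPM) and at 0 in the LDN FOXA2-positive ones, while Fstl1 is above 80 CPM in every BMP4 and RA FOXA2-positive library.

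In FOXA2-positive cells Nog was higher with BMP4 than with LDN. It was the 1 member called among the 9 tested in this comparison (edgeR quasi-likelihood test, adjusted p = 0.00921), where 0.32% of all tested genes were called. No group had this schedule without either agent, so a rise with BMP4 and a fall with LDN cannot be told apart. Because LDN FOXA2-positive libraries had no read, the fold of Nog is a bound. It was at least 118-fold higher, against a floor of 3 counts over that group. The call was lost when either LDN FOXA2-positive library was left out (adjusted p = 0.142 without number 2 and 0.133 without number 3), when the remaining library is taken to vary as the other groups do. In FOXA2-negative cells the BMP4 libraries were again above every LDN library, but the log2 fold change of 2.83 ± 0.98 did not pass (adjusted p = 0.511, unadjusted p = 0.00813, edgeR). The difference of these BMP4 over LDN changes between fractions had adjusted p = 0.607 (edgeR, unadjusted p = 0.0021), so the fractions are not shown to differ in it.

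Against RA, Nog was higher after BMP4 in all 3 libraries of both fractions, without a call. Its log2 fold change was 3.68 ± 1.01 in FOXA2-positive cells (adjusted p = 0.395, edgeR) and 1.37 ± 0.92 in FOXA2-negative cells (adjusted p = 0.747). Without the RA libraries numbered 1 these were 3.15 (adjusted p = 0.683) and 0.88 (adjusted p = 0.94). The difference between the fractions was 2.31 ± 1.31 (edgeR, adjusted p = 1). LDN FOXA2-positive cells, with no read, were at least 9.1-fold lower in Nog than RA FOXA2-positive cells and at least 7.2-fold lower than LDN FOXA2-negative cells, and neither difference was called (edgeR, adjusted p = 0.203 and 0.155). LDN FOXA2-negative cells were 1.46 ± 0.96 lower than RA FOXA2-negative cells on the log2 scale (a log2 fold change of -1.46, edgeR, adjusted p = 0.729), which was -0.64 without RA FOXA2-negative library 3 and -0.87 without LDN FOXA2-negative library 2. Within BMP4, FOXA2-positive cells were above FOXA2-negative cells in every library (log2 fold change 1.20 ± 0.90, edgeR, adjusted p = 0.693), and within RA the groups overlapped (log2 fold change -1.11 ± 0.94, edgeR, adjusted p = 0.768). The RA value was -0.57 without FOXA2-positive library 1 and -0.29 without FOXA2-negative library 3. In each of the 3 numbered RA pairs Nog was lower in FOXA2-positive cells, and with the number as a block the change was -1.23 (edgeR, adjusted p = 0.657).

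Nog stood beside known BMP targets. Id1, a BMP-induced inhibitor of basic helix-loop-helix factors, was at 237 to 274 CPM in BMP4 FOXA2-positive, 243 to 282 in BMP4 FOXA2-negative, 3.01 to 14.1 in LDN FOXA2-positive, 3.98 to 6.71 in LDN FOXA2-negative, 66.3 to 82.5 in RA FOXA2-positive and 48.9 to 60.7 CPM in RA FOXA2-negative cells. Msx2, a homeobox target of BMPs, had 24.1 to 27.4 CPM in BMP4 FOXA2-positive cells and, like Nog, no read in the LDN FOXA2-positive libraries. It had 23.4 to 29.4 CPM in BMP4 FOXA2-negative and 3.24 to 3.98 CPM in LDN FOXA2-negative cells. Between the RA fractions, where Nog overlapped, Msx2 did not, with 1.33 to 4.31 CPM in FOXA2-positive and 7.93 to 12.6 CPM in FOXA2-negative cells. Between the BMP4 fractions, where Nog libraries did not overlap, those of Msx2 did, and so did those of Id1 (Id1 log2 fold change -0.04 ± 0.27, edgeR, adjusted p = 0.999).

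**Figure D2:**
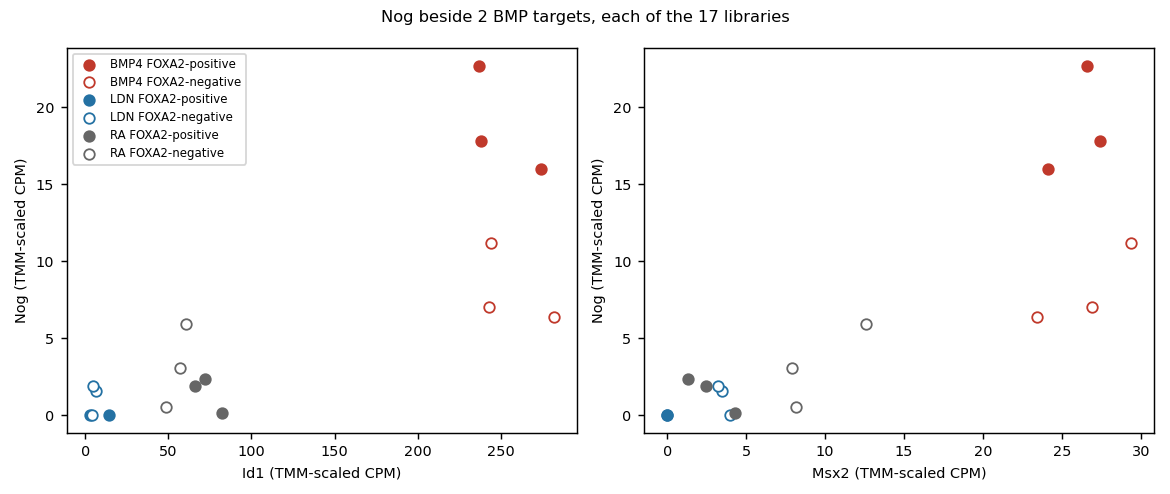
Nog against Id1 (left) and Msx2 (right), both in TMM-scaled CPM, 1 point for each of the 17 libraries; colour is treatment and filled points are FOXA2-positive. The 6 BMP4 libraries sit apart at the right of both panels, with Nog at 6.4 to 22.7 CPM.

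Chrd (ENSMUSG00000006958, chr16:20733127-20742384, plus strand) stayed close to the limit of detection. Its counts were 30, 0 and 8 in BMP4 FOXA2-positive, 25, 0 and 47 in BMP4 FOXA2-negative, 13 and 32 in LDN FOXA2-positive, 15, 30 and 0 in LDN FOXA2-negative, 22, 10 and 15 in RA FOXA2-positive and 0, 11 and 6 in RA FOXA2-negative cells. All groups overlapped their neighbours in mean level, and no comparison was called. Chrd overlaps Thpo on the opposite strand, and without the strand setting the reads of the pair cannot be told apart.

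Fstl1 (ENSMUSG00000022816, chr16:37776873-37836514, plus strand) was the member called between the sorted fractions. BMP4 FOXA2-positive libraries had 94.6, 109 and 81.0 CPM, against 47.6, 50.6 and 55.0 CPM in BMP4 FOXA2-negative cells. RA FOXA2-positive libraries had 90.2, 86.0 and 90.5 CPM, against 60.4, 53.4 and 43.5 CPM in RA FOXA2-negative cells. LDN FOXA2-positive cells had 61.5 and 68.7 CPM, and LDN FOXA2-negative cells 46.4, 62.0 and 44.2 CPM. The fractions did not overlap in BMP4 or RA, and overlapped in LDN at 1 library. The 3 FOXA2-negative groups were alike in mean, at 51.1 ± 3.72 (BMP4), 50.9 ± 9.68 (LDN) and 52.4 ± 8.51 CPM (RA; SD, n = 3 each), and overlapped one another.

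Fstl1 rose in FOXA2-positive over FOXA2-negative cells with BMP4 (log2 fold change 0.89 ± 0.19, edgeR, adjusted p = 0.0169) and with RA (0.76 ± 0.19, adjusted p = 0.0447), and each time it was the 1 member called of 9. Over all tested genes 0.921% were called with BMP4 and 1.19% with RA. With LDN the difference was 0.36 ± 0.21 and did not pass (edgeR, adjusted p = 0.526), and no member was called there, against 0.994% of all genes. The RA value is close to the threshold: the call was lost without the RA libraries numbered 1 (0.87, adjusted p = 0.0833) and without any 1 RA library except FOXA2-negative number 1 (adjusted p from 0.116 to 0.221), and that with BMP4 without any 1 BMP4 library numbered 1 or 2, of either fraction (adjusted p from 0.0663 to 0.124). In FOXA2-positive cells BMP4 over LDN gave 0.54 ± 0.22 (edgeR, adjusted p = 0.552) and LDN over RA gave -0.45 ± 0.21 (adjusted p = 0.526), and both LDN libraries were below the other 6. The BMP4 over LDN change was 0.54 ± 0.29 larger in FOXA2-positive than in FOXA2-negative cells, which did not pass (edgeR, adjusted p = 0.819), so the fraction difference is not shown to depend on treatment.

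Markers of other cell types moved with the fractions and treatments. Summed pluripotency markers (8 genes) ranged over 333 to 433 CPM in BMP4 FOXA2-positive against 593 to 912 CPM in BMP4 FOXA2-negative libraries, 356 to 376 against 720 to 965 CPM with LDN, and 309 to 424 against 777 to 1100 CPM with RA. Nanog was at 0 in LDN FOXA2-positive cells. Summed endoderm markers (6 genes) went the other way, with 38.0 to 87.2 against 11.1 to 34.6 CPM in BMP4, 37.4 to 75.7 against 5.56 to 18.2 CPM in LDN and 37.2 to 43.5 against 4.28 to 13.3 CPM in RA, with Gsc at 0 in LDN and RA FOXA2-positive cells. The single genes were less uniform than the sum. Of 4 tested, 2 were higher in FOXA2-positive cells with BMP4 and none was called. With LDN and with RA 3 of the 4 were higher, and Sox17 alone was called. Surface ectoderm markers (7 genes) summed to 545 to 651 CPM in BMP4 FOXA2-positive cells, 305 to 349 CPM in LDN FOXA2-positive cells and 236 to 297 CPM in RA FOXA2-positive cells, and to 601 to 642 (BMP4), 604 to 754 (LDN) and 477 to 590 CPM (RA) in FOXA2-negative cells. For BMP4 over LDN in FOXA2-negative cells, 3 of the 7 were higher, with Tfap2a and Gata3 called. In FOXA2-positive cells 6 of the 7 were higher, with Tfap2a, Tfap2c, Krt18 and Gata3 called. Other lists also differed without overlap between BMP4 and LDN FOXA2-positive cells, where Nog was called. Dorsal neural tube markers (5 genes) summed to 43.4 to 57.1 CPM with BMP4, against 11.1 to 20.8 CPM with LDN. Neural progenitor markers (6 genes) summed to 187 to 232 against 307 to 334 CPM, floor plate markers (5 genes) to 36.2 to 42.9 against 68 to 80.5 CPM, and paraxial mesoderm markers (4 genes) to 17.3 to 21.9 against 36.5 to 54.3 CPM. Against the direction of their sums, 2 of 6 neural progenitor genes and 1 of 3 tested paraxial mesoderm genes were higher with BMP4. Node and notochord markers (4 genes) were low and went different ways. Nodal averaged 3.27 CPM in BMP4 FOXA2-positive, 7.9 in BMP4 FOXA2-negative, 0.284 in LDN FOXA2-positive, 7.14 in LDN FOXA2-negative, 1.92 in RA FOXA2-positive and 17.3 CPM in RA FOXA2-negative cells. Foxj1 was highest in LDN FOXA2-positive cells, at 3.88 CPM against 0.196 to 0.659 CPM in the other 5 groups, T stayed at or under 3.22 CPM, and Noto, which marks the node, was at 0 in both BMP4 groups, LDN FOXA2-negative and RA FOXA2-positive cells. The part of these markers in the differences of Fstl1 and Nog was not tested.

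Fst (ENSMUSG00000021765, chr13:114452290-114458951, minus strand) had 9, 3 and 5 counts in BMP4 FOXA2-positive, 16, 41 and 8 in BMP4 FOXA2-negative, 4 and 3 in LDN FOXA2-positive, 2, 0 and 15 in LDN FOXA2-negative, 0, 9 and 3 in RA FOXA2-positive and 13, 4 and 4 in RA FOXA2-negative cells. Its highest group mean, 2.34 ± 1.87 CPM in BMP4 FOXA2-negative cells, overlapped the next group. No comparison was called.

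**Figure D3:**
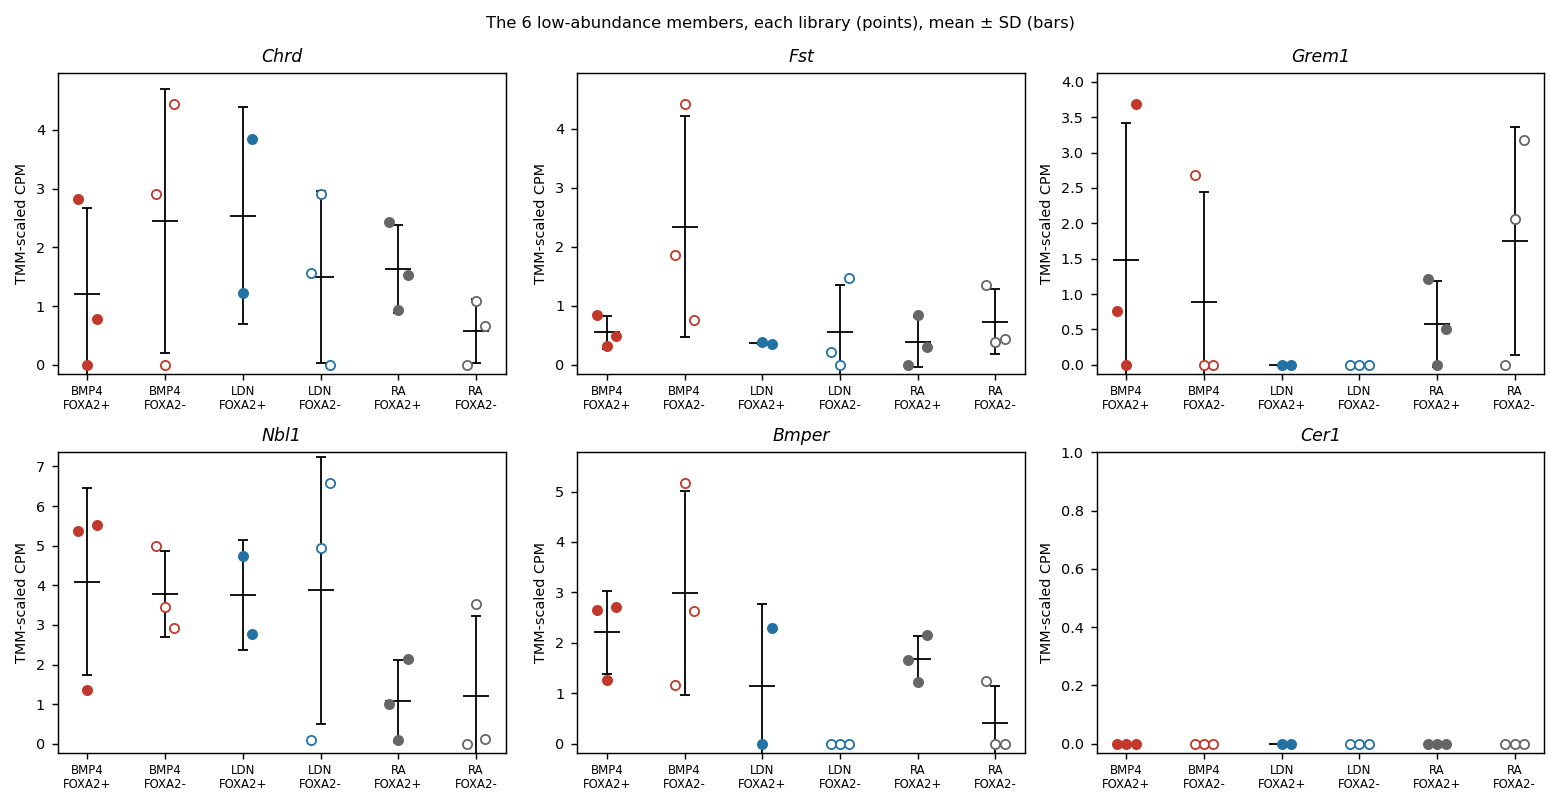
TMM-scaled CPM of the 6 members of low abundance, drawn as in the plot of the more abundant ones (bars: mean and SD, n = 3, or 2 for LDN FOXA2-positive; bars that reach below 0 are cut at the axis). Grem1 is at 0 in all LDN libraries, Bmper is at 0 in the LDN FOXA2-negative libraries, and Cer1 is at 0 everywhere.

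Among the DAN family, Grem1 (ENSMUSG00000074934, chr2:113746164-113758646, minus strand) was at 0 in all 5 LDN libraries. Its counts were 8, 0 and 38 in BMP4 FOXA2-positive, 23, 0 and 0 in BMP4 FOXA2-negative, 11, 0 and 5 in RA FOXA2-positive and 0, 21 and 29 in RA FOXA2-negative cells, so that each of these groups also held a library at 0 and overlapped LDN. The BMP4 means were at least 9.31-fold (FOXA2-positive) and 8.93-fold (FOXA2-negative) higher than LDN, and the LDN means at least 3.62-fold (FOXA2-positive) and 17.5-fold (FOXA2-negative) lower than RA, and none of these was called. Nbl1 (ENSMUSG00000041120, chr4:139082284-139092993, minus strand) averaged 4.09 ± 2.36 and 3.79 ± 1.08 CPM in BMP4 FOXA2-positive and FOXA2-negative cells, 3.75 ± 1.39 (n = 2) and 3.88 ± 3.36 CPM in the LDN fractions, and 1.08 ± 1.03 and 1.21 ± 2.01 CPM in the RA fractions (SD, n = 3 unless stated). Both RA means were the lowest. LDN FOXA2-positive libraries (4.73 and 2.77 CPM) lay above RA FOXA2-positive ones (0.996, 0.0938 and 2.15 CPM), the other treatment groups overlapped RA within each fraction, and no comparison was called. Cer1 (ENSMUSG00000038192, chr4:82881751-82885148, minus strand), known from the anterior visceral endoderm, was not detected at this depth: 0 counts allow up to 0.0985 (BMP4 FOXA2-positive), 0.105 (BMP4 FOXA2-negative), 0.159 (LDN FOXA2-positive), 0.0999 (LDN FOXA2-negative), 0.102 (RA FOXA2-positive) and 0.104 CPM (RA FOXA2-negative), for counting error only.

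Twsg1 (ENSMUSG00000024098, chr17:65921972-65951226, minus strand) was lowest with LDN in both fractions. BMP4 FOXA2-positive cells had 18.7, 33.0 and 33.3 CPM and BMP4 FOXA2-negative cells 26.3, 24.4 and 24.1 CPM. LDN FOXA2-positive cells had 16.8 and 19.9 CPM, and LDN FOXA2-negative cells 17.5, 13.7 and 19.2 CPM. RA FOXA2-positive cells had 38.9, 22.5 and 27.8 CPM and RA FOXA2-negative cells 23.5, 31.4 and 25.0 CPM. Every LDN library was below every BMP4 FOXA2-negative and RA library, and 1 BMP4 FOXA2-positive library fell among them. BMP4 over LDN gave a log2 fold change of 0.63 ± 0.33 in FOXA2-positive cells (edgeR, adjusted p = 0.697) and 0.57 ± 0.29 in FOXA2-negative cells (adjusted p = 0.712), and LDN over RA gave -0.70 ± 0.33 (adjusted p = 0.527) and -0.67 ± 0.29 (adjusted p = 0.647), so none was called.

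Bmper (ENSMUSG00000031963, chr9:23223076-23485200, plus strand) had 10, 48 and 28 counts in BMP4 FOXA2-negative cells and none in the LDN FOXA2-negative libraries, a difference of at least 29.9-fold without overlap that was not called (edgeR, adjusted p = 0.355). No member was called in that comparison, where 0.196% of all genes were, and 3 of 9 had an unadjusted p under 0.05, against 7.06% of all genes. These were Nog, Bmper and Grem1, and Grem1 overlapped between the groups, with counts in 1 BMP4 library alone. In FOXA2-positive cells Bmper counts were 28, 12 and 28 with BMP4 and 0 and 19 with LDN, which overlap. RA libraries had 15, 13 and 21 counts (FOXA2-positive) and 12, 0 and 0 (FOXA2-negative). Within LDN the FOXA2-positive mean was at least 11.4-fold higher than the FOXA2-negative one and rests on 1 library (edgeR, adjusted p = 0.258).

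Tsku (ENSMUSG00000049580, chr7:98350668-98361328, minus strand) was the most abundant member in every library and was not called in any comparison. BMP4 FOXA2-positive cells had 284, 310 and 237 CPM and BMP4 FOXA2-negative cells 242, 268 and 233 CPM. LDN FOXA2-positive cells had 310 and 401 CPM, and LDN FOXA2-negative cells 193, 193 and 209 CPM. RA FOXA2-positive cells had 146, 232 and 242 CPM and RA FOXA2-negative cells 92.5, 158 and 221 CPM. LDN FOXA2-positive library 3 was the highest, library 2 stood beside BMP4 FOXA2-positive library 2 at 310 CPM, and in each RA fraction the library numbered 1 was the lowest. Between fractions the log2 fold change was 0.16 ± 0.22 with BMP4 (edgeR, adjusted p = 0.889), 0.84 ± 0.24 with LDN (adjusted p = 0.113, no overlap) and 0.39 ± 0.22 with RA (adjusted p = 0.543). Tsku was higher in FOXA2-positive cells in all 3 numbered RA pairs, and with the number as a block the RA value was 0.44 (edgeR, adjusted p = 0.0884).

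The treatment comparisons of Tsku were small beside their errors or failed the adjustment. BMP4 over LDN was -0.36 ± 0.24 in FOXA2-positive cells (edgeR, adjusted p = 0.756) and 0.32 ± 0.22 in FOXA2-negative cells (adjusted p = 0.808), and the difference between these, -0.68 ± 0.33, had adjusted p = 0.802. BMP4 over RA was 0.42 ± 0.22 in FOXA2-positive cells (edgeR, adjusted p = 0.825) and 0.66 ± 0.22 in FOXA2-negative cells (adjusted p = 0.581, no overlap). LDN over RA was 0.78 ± 0.24 in FOXA2-positive cells (edgeR, adjusted p = 0.244, no overlap) and 0.34 ± 0.22 in FOXA2-negative cells (adjusted p = 0.729). Without the RA libraries numbered 1, BMP4 over RA was 0.23 in FOXA2-positive and 0.39 in FOXA2-negative cells, and LDN over RA was 0.59 in FOXA2-positive and 0.06 in FOXA2-negative cells.

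**Figure D4:**
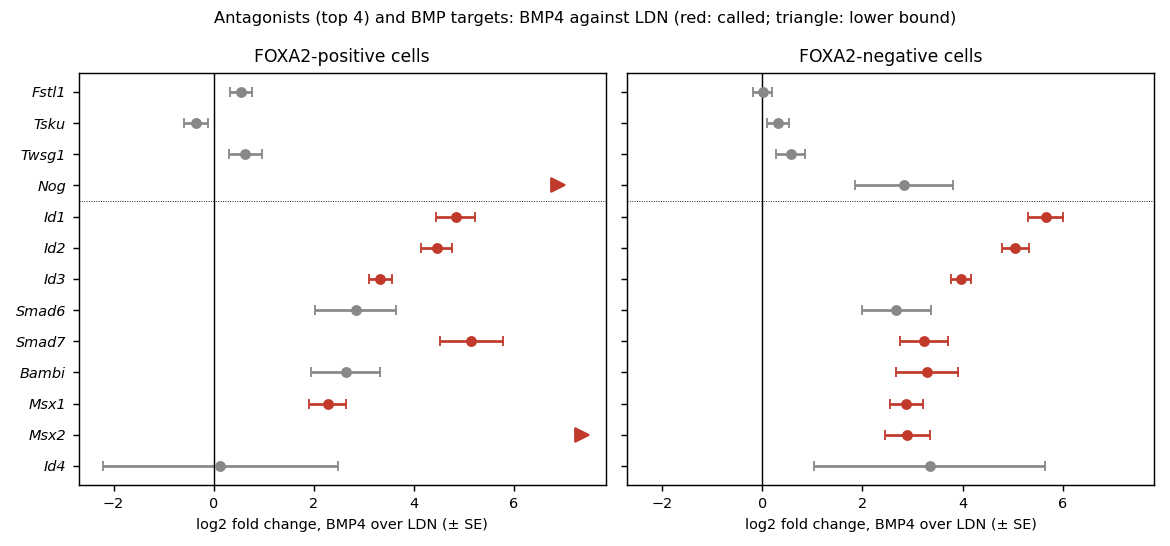
Log2 fold change of BMP4 over LDN in FOXA2-positive (left) and FOXA2-negative cells (right), with SE, for the 4 more abundant antagonists (above the dotted line) and 9 BMP target and feedback genes; red marks an adjusted p under 0.05 and triangles a lower bound. Nog is the antagonist past the threshold, at 118-fold or more in FOXA2-positive cells.

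As a group the members gave few calls. No member was called in BMP4 over RA in FOXA2-positive or FOXA2-negative cells (0.0786% of all genes in each), in LDN over RA in FOXA2-positive (0.208%) or FOXA2-negative cells (0.0393%), or in the differences between fractions of BMP4 over LDN (0.0337%), BMP4 over RA (0.00561%) and LDN over RA (0.00561%). At an unadjusted p under 0.05 edgeR had 1 of the 9 for BMP4 over RA in each fraction, where 5.6% (FOXA2-positive) and 7.36% (FOXA2-negative) of all genes had one. For LDN over RA it had 4 in FOXA2-positive cells (Nog, Fstl1, Twsg1 and Tsku; 9.35% of all genes) and 3 in FOXA2-negative cells (Twsg1, Grem1 and Bmper; 7.5%). Grem1 and Bmper had no read in the LDN FOXA2-negative libraries and overlapped RA there, near the detection limit. For the differences edgeR had 3 (BMP4 over LDN, 6.18% of all genes), 0 (BMP4 over RA, 4.17%) and 1 (LDN over RA, 5.81%). The median log2 fold change of the members was 0.56 for BMP4 over LDN in FOXA2-positive cells and 0.71 in FOXA2-negative cells, with genes at 0 set to their bound, against 0.01 and 0.00 over all tested genes. LDN over RA gave medians of -0.45 and -0.37, against -0.05 and -0.02. BMP4 over RA gave 0.42 and 1.37, against -0.01 in each fraction. With 9 members, a median is the value of 1 gene. For BMP4 over LDN these were Fst (0.56 ± 2.07) and Chrd (0.71 ± 1.72), both near the detection limit. For LDN over RA they were Fstl1 (-0.45 ± 0.21) and Fst (-0.37 ± 1.82). For BMP4 over RA they were Tsku (0.42 ± 0.22) and Nog (1.37 ± 0.92). For BMP4 over LDN the log2 fold change was above 0 in 7 of the 9 members in FOXA2-positive and 8 in FOXA2-negative cells. For BMP4 over RA it was above 0 in 7 and 6, and for LDN over RA in 3 and 3. Several of these values come from members near the detection limit. The medians alone cannot show a shift of the group, and a shift was not tested.

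Of the other pathway lists examined, the genes called between treatments were BMP target and feedback genes. Of 9 BMP target and feedback genes, 6 were called higher with BMP4 than with LDN in FOXA2-positive cells (0.32% of all tested genes were called). Among them were Id1 (log2 fold change 4.84 ± 0.39), Id2 (4.46 ± 0.31), Id3 (3.33 ± 0.23), the inhibitory SMAD gene Smad7 (5.15 ± 0.63) and Msx1 (2.28 ± 0.37), and Msx2 was at least 164-fold higher. In FOXA2-negative cells 7 were called higher (0.196% of all tested genes were called), with the pseudoreceptor gene Bambi (3.29 ± 0.61) as the addition. The median of the 9 for BMP4 over LDN was 3.33 in FOXA2-positive and 3.29 in FOXA2-negative cells. Between fractions, Id3 was called higher and Msx2 lower in FOXA2-positive cells within LDN and within RA (0.994% and 1.19% of all tested genes were called). None of the 9 was called between the BMP4 fractions. Of 10 tested other secreted BMP-binding genes, such as Smoc1 (8.69 to 25.5 CPM over the 17 libraries), 2 chordin-cleaving proteases including Bmp1, 6 BMP ligands and 10 receptors and SMADs, of which the activin receptor gene Acvr2b was the most abundant, none was called in any of the 9 pairwise comparisons. The endogenous ligand gene Bmp7 had 4.29 to 10.1 CPM in BMP4 FOXA2-positive cells, 20.5 to 31.7 in LDN FOXA2-positive cells and 10.6 to 16.4 in RA FOXA2-positive cells, and in FOXA2-negative cells 8.14 to 14.1 with BMP4, 8.24 to 18.2 with LDN and 4.9 to 8.89 CPM with RA. Bmp4 itself averaged 4.28 ± 3.14 (BMP4 FOXA2-positive), 2.76 ± 0.658 (BMP4 FOXA2-negative), 7.51 ± 2.32 (LDN FOXA2-positive, n = 2), 7.81 ± 8.32 (LDN FOXA2-negative), 4.47 ± 3.33 (RA FOXA2-positive) and 2.29 ± 1.09 CPM (RA FOXA2-negative; SD, n = 3 unless stated). Of 7 tested activin and Nodal class ligands and Lefty genes, which follistatin and cerberus class proteins also concern, none was called between treatments. Between fractions, Nodal was lower in FOXA2-positive than in FOXA2-negative cells within LDN (log2 fold change -4.51 ± 0.96, edgeR, adjusted p = 0.0155) and within RA (-3.16 ± 0.71, adjusted p = 0.0196). Gdf3 was lower in FOXA2-positive than in FOXA2-negative cells within BMP4 (-1.07 ± 0.23, edgeR, adjusted p = 0.0165).

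The genes most alike were ranked by Pearson r of log2 CPM over the 17 libraries, which share treatments and depth; genes under a mean of 20 CPM were left out. For Nog they were Tbx3 (r = 0.86), a T-box transcription factor gene, Dctn2 (0.82) and Znhit3 (0.81). Tbx3 averaged 170 ± 47.8 CPM in BMP4 FOXA2-positive, 105 ± 12.1 in BMP4 FOXA2-negative, 4.74 ± 0.399 in LDN FOXA2-positive (n = 2), 15.8 ± 3.88 in LDN FOXA2-negative, 24.7 ± 0.414 in RA FOXA2-positive and 35.9 ± 7.17 CPM in RA FOXA2-negative cells (SD, n = 3 unless stated). For Fstl1 they were Tex261 (r = 0.89), Ssbp3 (0.88) and the cyclin gene Ccnd2 (0.87), for Twsg1 they included Atr (0.83) and Nolc1 (0.77), and for Tsku Otub1 (0.95), D17H6S53E (0.94) and Sept11 (0.93).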

How the data were processed

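For each of 17 libraries the authors deposited raw counts per Ensembl gene (49671 genes and 5 summary lines). HTSeq 0.11.2, cutadapt 1.18, DESeq2 1.26.0, UMI-tools 1.0.0 and the mm10 build are listed in the submitters' processing notes. Not given in the sources used here are the aligner, annotation release and strand setting. Summary lines, which name no gene, took 49.3% to 54.4% of tallied reads and were left out. Symbols, coordinates and exon lengths came from GENCODE M21 (GRCm38).

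The counts went into edgeR 4.0.16 under R 4.3.3 (filterByExpr with minimum count 10 and minimum total 15, 17813 genes kept; TMM; 1 robust quasi-likelihood model of 6 groups, 11 residual degrees of freedom). There were 9 pairwise comparisons and 3 interactions, with a threshold of 0.05 on p adjusted over all tested genes by Benjamini-Hochberg; adjusted p-values are from this test. Standard errors, approximate, are the absolute log2 fold change over the root of F. Where a group had no count, the fold is a bound against 3 counts over the group. The model was tested on simulated data. Alternatives included DESeq2 1.42.0. All members are named; of other lists, the genes called or, where none was, the most abundant, and Bmp4, chosen after its values were seen. A few genes these rules would name are not reported here. Members and lists were chosen with earlier results of these data known. Libraries with the same number correlated in their deviations from group means within RA (r = 0.587, 0.238 and 0.277 over 6669 genes), but not within BMP4 (0.051 to 0.079) or LDN (0.057 and 0.062). These values do not settle whether the fractions are paired in any of the treatments. Both RA libraries numbered 1 stood apart, which also moves the group means that the other deviations are taken from. Between treatments r ran from -0.163 to 0.283, the highest for number 1 between RA and BMP4 FOXA2-negative cells.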

Additional observations from a re-analysis of the deposited data

Results flagged for a closer look

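For BMP4 over LDN, the log2 fold change of Tsku had opposite signs in the sorted fractions. It was -0.36 in FOXA2-positive and 0.32 in FOXA2-negative cells, neither of them called (edgeR, adjusted p = 0.756 and 0.808). Every BMP4 library lay below every LDN library in FOXA2-positive cells, though the closest pair both round to 310 CPM, and above every LDN library in FOXA2-negative cells, and the difference of the log2 fold changes was -0.68 (FOXA2-positive minus FOXA2-negative). By edgeR's quasi-likelihood interaction test its unadjusted p was 0.0488 and its adjusted p 0.802, so it fails the correction over all genes.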

How the results depend on the processing

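The 27 fold changes of Nog, Fstl1, Twsg1 and Tsku that were rerun kept their direction under all 346 alternatives, and 327 kept their side of the threshold; 11 lost a call and 8 gained one. The count of members called changed as follows. With DESeq2 it was 2 between fractions with LDN (Nog and Tsku), 1 for BMP4 over LDN in FOXA2-negative cells (Bmper) and 1 for LDN over RA in FOXA2-positive cells (Nog), while calls over all genes were 481, 118 and 202 there, against 177, 35 and 37. With no filter on low counts it was 2 between fractions with LDN, 1 for BMP4 over RA in FOXA2-positive cells (Nog), 1 in FOXA2-negative cells (Tsku), 2 for LDN over RA in FOXA2-positive cells (Nog and Tsku) and 1 for the difference of BMP4 over LDN between fractions (Nog), while all-gene calls were 460, 100, 94, 294 and 54, against 177, 14, 14, 37 and 6. In a model of the compared groups alone it was 0 between fractions with RA (Fstl1, adjusted p = 0.141), 1 with LDN (Tsku) and 1 for BMP4 over RA in FOXA2-positive cells (Nog). Without both RA libraries numbered 1 it was 0 between fractions with RA. Leaving out 1 library gave 0 to 1 member called between fractions with RA, 0 to 1 with BMP4 and 0 to 1 for BMP4 over LDN in FOXA2-positive cells. The causes of these changes were not tested.

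With the replicate number as a block, calls over all genes between RA fractions were 362, against 212 without it, with 206 shared, and Fstl1 kept its call (adjusted p = 0.032). The block added 1 member between fractions with LDN (Tsku, edgeR, adjusted p = 0.00848) and changed no other count of members called. Within LDN, libraries of the same number hardly correlated (r = 0.057 and 0.062), which does not settle whether they are paired. Over the alternatives that kept all libraries or dropped the RA pair, calls over all genes ran from 109 to 466 between RA fractions, 120 to 411 between BMP4 fractions and 56 to 196 for BMP4 over LDN in FOXA2-positive cells. Leaving out 1 library gave 105 to 219 calls between RA fractions, 61 to 165 between BMP4 fractions (164 with all), 66 to 163 between LDN fractions and 32 to 55 for BMP4 over LDN in FOXA2-positive cells (57 with all). Under Spearman's rho 1 of the 3 most alike genes was shared for Nog (Tbx3), Twsg1 (Atr) and Tsku (Sept11). Of 60 levels, 59 differed by less than the spread between libraries under raw totals; the exception was Fst in LDN FOXA2-positive cells (0.355 CPM). Chrd, Fst, Grem1, Bmper and Nbl1 had at most 67 counts in a library and varied widely within groups, at similar depth, and the cause of that spread was not tested.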
